A study of Mus musculus with 16 samples.

Results

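The 10 genes described here encode proteins with which the intestinal epithelium holds bacteria away from its surface or limits their growth: Reg3b, Reg3g, Lypd8, Pigr, Duox2, Duoxa2, Nos2, Lcn2, Saa1 and Lyz1. They were taken by name, as antimicrobial and barrier defence genes, and make up 10 of the 54123 genes to which reads were assigned. RNA had been sequenced from 16 libraries of mouse colon organoids, which are cultures of epithelium grown in a gel from crypt cells. The libraries fell into 8 groups of 2, made by crossing the region of origin (proximal or distal colon), the guide (Scramble-sgRNA as control, or Cdx2-sgRNA) and the medium (WENR-plus or WENR-minus). CDX2 is a homeobox transcription factor of intestinal epithelium, and the study asked how its loss changes organoids from each end of the colon.

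The organoids came from female mice aged 8 weeks that carried a heterozygous Cre-inducible BrafV600E allele and a heterozygous tdTomato reporter, in every group alike, and the labels name no Cre step for these libraries. Proximal organoids were made from the first centimetre of the colon and distal organoids from the last centimetre. Guides and Cas9 were delivered by lentivirus. The Cdx2-sgRNA organoids were each grown from a single clone with frameshifts in both Cdx2 alleles, whereas no cloning step was described for the Scramble-sgRNA organoids, so that clone and guide cannot be told apart. After 4 months in culture, WENR-plus, the medium with Wnt3a, EGF, Noggin and R-spondin 1, was given for 2 days, and it was then kept or exchanged for WENR-minus, without these factors, for 3 more days. The 2 replicates of a group came from independent mice.

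Epithelial defence works in layers. Secreted lectins of the Reg3 family and lysozyme attack bacterial envelopes. LYPD8, a heavily glycosylated surface protein of the colon, is shed into the mucus and binds flagellated bacteria, and PIGR carries dimeric IgA across the cell into the lumen. DUOX2 is an NADPH oxidase that releases hydrogen peroxide at the apical membrane and needs DUOXA2 to mature and reach that membrane. NOS2 makes nitric oxide, lipocalin-2 (Lcn2) binds bacterial siderophores and so withholds iron, and SAA1 is an acute phase protein that carries retinol and is made by gut epithelium as well as liver. Several of these genes are known as targets of microbial and cytokine signals.

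Library totals ran from 12465194 to 18922143 estimated reads, with a median of 16836530. Levels are given as CPM, the reads of a gene scaled to a common library size with edgeR's TMM factors. Epithelial markers summed to between 3970 and 18050 CPM in every library, while the fibroblast markers stayed at or below 1.12 CPM, with Dcn and Lum at 0 throughout, and the immune markers between 1.5 and 26.4 CPM, with Adgre1 at 0. The targeted gene itself had 142 and 127 CPM in the proximal Scramble-sgRNA libraries against 29.9 and 33.3 CPM in the proximal Cdx2-sgRNA libraries in WENR-plus, a called drop (log2 fold change -2.09 ± 0.21 SE, adjusted p = 5.49e-05). In distal organoids in WENR-plus it had 76.8 and 67.9 CPM against 62.2 and 50.2 CPM, which did not pass (adjusted p = 0.858). A frameshift need not lower the RNA, so these levels do not check the edit.

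In the comparisons below a gene was called when the Benjamini-Hochberg adjusted p of edgeR's quasi-likelihood test, taken over all 15289 genes tested, was under 0.05 and the log2 fold change was above 1 in size. Of the 10 genes 9 entered the test, and Reg3b had no read in any library. The same fit served every comparison, and comparisons that share a group are not independent. In bulk RNA of this kind, fewer cells of a type and less RNA per cell cannot be told apart.

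The upstream sequences of 3 members are shown first: Lypd8 and Saa1, which rose with the change of medium in 4 and 3 of the 4 backgrounds, and Duoxa2, which lies head to head with Duox2. Each run is the 250 bases before the RefSeq start site on the gene's strand, from RefSeq promoters on GRCm38.p6, which hold 9 of the 10 members. The Lypd8 run lies at chr11:58378782-58379031 on the plus strand, the Saa1 run at chr7:46742981-46743230 on the minus strand and the Duoxa2 run at chr2:122298650-122298899 on the plus strand. Capitals mark matches to any of 5 motifs searched on both strands: STAT as TTCNNNGAA, CDX as TTTATNG, C/EBP as TTGCNNAA, the TATA box as TATAAA, and the kappaB consensus.
Lypd8: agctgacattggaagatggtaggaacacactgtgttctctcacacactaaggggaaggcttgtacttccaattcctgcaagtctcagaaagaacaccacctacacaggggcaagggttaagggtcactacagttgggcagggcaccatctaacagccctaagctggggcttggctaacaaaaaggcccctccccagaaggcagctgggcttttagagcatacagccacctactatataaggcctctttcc
Saa1: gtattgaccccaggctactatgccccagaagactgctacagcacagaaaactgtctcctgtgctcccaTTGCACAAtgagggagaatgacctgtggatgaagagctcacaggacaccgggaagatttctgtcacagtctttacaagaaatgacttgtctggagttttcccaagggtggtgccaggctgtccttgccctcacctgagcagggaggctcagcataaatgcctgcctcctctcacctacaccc
Duoxa2: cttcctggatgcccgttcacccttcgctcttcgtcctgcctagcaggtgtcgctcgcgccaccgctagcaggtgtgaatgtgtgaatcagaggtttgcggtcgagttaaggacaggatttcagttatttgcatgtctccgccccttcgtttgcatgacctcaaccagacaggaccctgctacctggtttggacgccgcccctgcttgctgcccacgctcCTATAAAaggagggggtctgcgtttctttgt

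The Saa1 run held 1 C/EBP match, at bases -182 to -175 from the start. The Duoxa2 run held a TATA box at -30 to -25, and its only CDX match, on the other strand at -31 to -25, covers the same bases. The Lypd8 run held none of the motifs, as did the corresponding runs of Pigr and Duox2. Among 32817 such windows of the genome, 9.81% held a CDX match, 9.57% a C/EBP match, 12.4% a TATA box, 7.01% a STAT match and 3.9% a kappaB match. The corresponding Reg3g run held a kappaB match at -123 to -114 and 2 CDX matches, at -161 to -155 and -28 to -22. The first overlaps TATAAA on the other strand, and the second overlaps TATAAA on the gene's strand at -27 to -22. Reg3b held a STAT match at -129 to -121 and TATAAA at -29 to -24. Lcn2 held a CDX match at -61 to -55 and a C/EBP match at -216 to -209, and Lyz1 a C/EBP match at -209 to -202. The RefSeq starts of Duox2, Reg3b and Lcn2 lie inside the genes at the gene positions given below. The runs of these genes are therefore mostly or wholly within the genes. All matches are descriptions of the letters, and nothing was measured at them here.

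The Reg3 lectins were close to silent. Reg3b (chr6:78370657-78373466, plus strand; gene positions here and below are on GRCm38) had 0 reads in all 16 libraries, which allows at most 3 reads in each by counting error alone. Reg3g (chr6:78466269-78468872, minus strand) peaked at 18 reads in a library and at 0.952 CPM. Its reads lay mostly in WENR-plus: 0.6 and 0.484 CPM in distal Scramble-sgRNA and 0.859 and 0.952 CPM in distal Cdx2-sgRNA, against 0 reads in both distal Scramble-sgRNA libraries and at most 0.0846 CPM in distal Cdx2-sgRNA after WENR-minus. The groups did not overlap, which held for 72.2% of all tested genes in Scramble-sgRNA and 75.1% in Cdx2-sgRNA. Both differences were called, at least 2.43-fold lower in Scramble-sgRNA (adjusted p = 0.0245) and at least 3.59-fold lower in Cdx2-sgRNA (adjusted p = 0.03), with the lower group set at 3 reads per library. Each of these calls was lost when any 1 of its 4 libraries was left out, with adjusted p up to 0.0936 in Scramble-sgRNA and up to 0.155 in Cdx2-sgRNA, and DESeq2 did not call the second (adjusted p = 0.0747). The neighbouring family members Reg3a and Reg3d had 0 reads throughout.

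Lypd8 (ENSMUSG00000013643.13, chr11:58379043-58390728, plus strand) ranged from 31 to 13020 CPM over the 16 libraries. In WENR-plus it stood at 248 and 195 CPM in proximal Scramble-sgRNA and at 470 and 147 CPM in distal Scramble-sgRNA. In WENR-minus the same cultures held 2852 and 1988 CPM and 7853 and 4519 CPM. Every WENR-minus library lay above both WENR-plus libraries of its own region, a 10.9-fold rise in proximal (log2 3.45 ± 0.59, adjusted p = 0.00173) and a 20-fold rise in distal organoids (4.33 ± 0.61, adjusted p = 0.000305). Of all tested genes 69.4% in proximal and 72.2% in distal controls lay apart between the media, in either direction. With Cdx2-sgRNA the distal values were 568 and 402 CPM in WENR-plus and 13020 and 9561 CPM in WENR-minus, a 23.3-fold rise (4.54 ± 0.62, adjusted p = 0.000131). These 3 calls held when any 1 library was left out, with adjusted p up to 0.0218, though the distal control rise went from 4.33 to 5.44 on the log2 scale without WENR-plus replicate 1.

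The proximal Cdx2-sgRNA organoids stood apart in the level of Lypd8. They had 50.2 and 31 CPM in WENR-plus and 277 and 115 CPM in WENR-minus. Of their WENR-minus libraries, 1 lay above and 1 below both proximal controls in WENR-plus (248 and 195 CPM). The rise with WENR-minus was 4.83-fold (2.27 ± 0.57, adjusted p = 0.0235), and it did not pass without WENR-minus replicate 1 (1.53, adjusted p = 0.132) or WENR-plus replicate 2 (1.96, adjusted p = 0.156), nor with the compared groups alone (adjusted p = 0.147). Against Scramble-sgRNA, Lypd8 was 12.4-fold lower in WENR-minus (-3.63 ± 0.59, adjusted p = 0.000954) and 5.46-fold lower in WENR-plus (-2.45 ± 0.57, adjusted p = 0.0101). The WENR-minus call held without any 1 library (adjusted p up to 0.0122), at -4.37 without Cdx2-sgRNA replicate 1, whereas the WENR-plus call missed the threshold without Scramble-sgRNA replicate 1 (adjusted p = 0.0513) or Cdx2-sgRNA replicate 2 (adjusted p = 0.0782).

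In distal organoids no difference in Lypd8 with Cdx2-sgRNA was called. The difference was 0.87 ± 0.54 in WENR-minus (adjusted p = 0.338) and 0.65 ± 0.54 in WENR-plus (adjusted p = 0.965). The change with Cdx2-sgRNA differed between the regions when that difference was itself tested, by -4.50 ± 0.79 log2 units in WENR-minus (adjusted p = 0.0036) and by -3.10 ± 0.78 in WENR-plus (adjusted p = 0.0411). Of the 8 libraries behind each, none undid the first, which was -5.24 without proximal Cdx2-sgRNA replicate 1, and leaving out any but replicate 1 of the distal Scramble-sgRNA group (-4.13 without it) undid the second (adjusted p 0.0543 to 0.138), as did a fit of the compared groups alone (adjusted p = 0.0725). Ordered by mean level, Lypd8 ran from proximal Cdx2-sgRNA in WENR-plus up through proximal Cdx2-sgRNA in WENR-minus, the proximal and distal controls and distal Cdx2-sgRNA in WENR-plus, to the proximal control, the distal control and distal Cdx2-sgRNA in WENR-minus. The 2 control groups in WENR-plus overlapped in their libraries, proximal Cdx2-sgRNA in WENR-minus overlapped each of them, and distal Cdx2-sgRNA in WENR-plus overlapped the distal controls.

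The colonocyte marker list moved in most of the same comparisons. Its 10 genes, none at 0, summed to 472 to 517 CPM in proximal controls in WENR-plus and to 10200 to 13100 CPM in WENR-minus. In distal controls the sums were 514 to 704 and 12210 to 15920 CPM, and in distal Cdx2-sgRNA 716 to 945 and 19790 to 22020 CPM. In proximal Cdx2-sgRNA organoids they were 149 to 256 and 531 to 1601 CPM. Only 1 of the 10 markers was called higher with WENR-minus there and 0 lower, with a median of -0.31. The rise of that sum therefore does not stand for the list. Across the 16 libraries the genes whose log2 CPM followed that of Lypd8 most closely were Tmem8 and Dsg2 (Pearson r = 0.99 each) and Abr (r = 0.989), out of 12524 genes above 1 CPM on average, and these libraries share their groups. The part of cell composition in the Lypd8 differences was not tested.

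Saa1 (chr7:46740497-46742980, minus strand) was highest in distal organoids in WENR-minus. In WENR-minus the distal Scramble-sgRNA libraries had 116 and 66.2 CPM and the distal Cdx2-sgRNA libraries 123 and 176 CPM, against 7.68 and 2.24 CPM in the proximal controls. In WENR-plus no library passed 1.89 CPM. The distal groups did not overlap between media, as was so for 72.2% of all tested genes in Scramble-sgRNA and 75.1% in Cdx2-sgRNA. The rise was 106-fold in Scramble-sgRNA (6.73 ± 0.73, adjusted p = 6.92e-05) and 101-fold in Cdx2-sgRNA (6.66 ± 0.71, adjusted p = 2.82e-05), which both held without any 1 library. Without WENR-plus replicate 1 the Scramble-sgRNA rise was 8.15, and over the 4 libraries left out in turn it ran from 6.16 to 8.15.

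In proximal controls Saa1 went from 1.1 and 0.769 CPM to 7.68 and 2.24 CPM with WENR-minus (2.37 ± 0.68, adjusted p = 0.0228). That call rested on single libraries: without WENR-minus replicate 1 the difference was 1.25 (adjusted p = 0.254), without replicate 2 it was 3.07, and without WENR-plus replicate 1 or 2 the adjusted p was 0.0811 and 0.122. With the compared groups alone it was 0.0523. Proximal Cdx2-sgRNA libraries in WENR-minus held 0 and 3 reads of Saa1, and the level there was at least 26-fold below that of the proximal controls (adjusted p = 0.00172). The bound was 11.8-fold without Scramble-sgRNA replicate 1 and 40.3-fold without Scramble-sgRNA replicate 2, and the call held without any 1 of the 4 libraries (adjusted p up to 0.0147). Between the controls of the 2 regions in WENR-minus, Saa1 was 18.5-fold lower in proximal organoids (-4.21 ± 0.62, adjusted p = 0.00237), at -5.39 and -3.56 without proximal replicate 1 and 2. In distal organoids the Cdx2-sgRNA difference was 0.72 ± 0.53 (adjusted p = 0.429), and the test that the change with Cdx2-sgRNA differed between regions passed in WENR-minus (adjusted p = 0.00448), without a size here because a group lies at the floor.

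Saa1 has close copies, among which short reads can be split. Saa2 had at most 13 reads in a library, and had reads only in the 4 distal WENR-minus libraries (0.507 to 1.09 CPM). Saa3 was seen above 3 reads in the 4 proximal Scramble-sgRNA libraries, with 1 and 0.887 CPM in WENR-plus and 4.65 and 1.61 CPM in WENR-minus, and in 1 further library. Over the 16 libraries the log2 CPM of Saa1 followed that of Lypd8 with r = 0.892 and was close to those of Pla2g4f (r = 0.968) and Ccdc93 (r = 0.966).

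**Figure D1:**
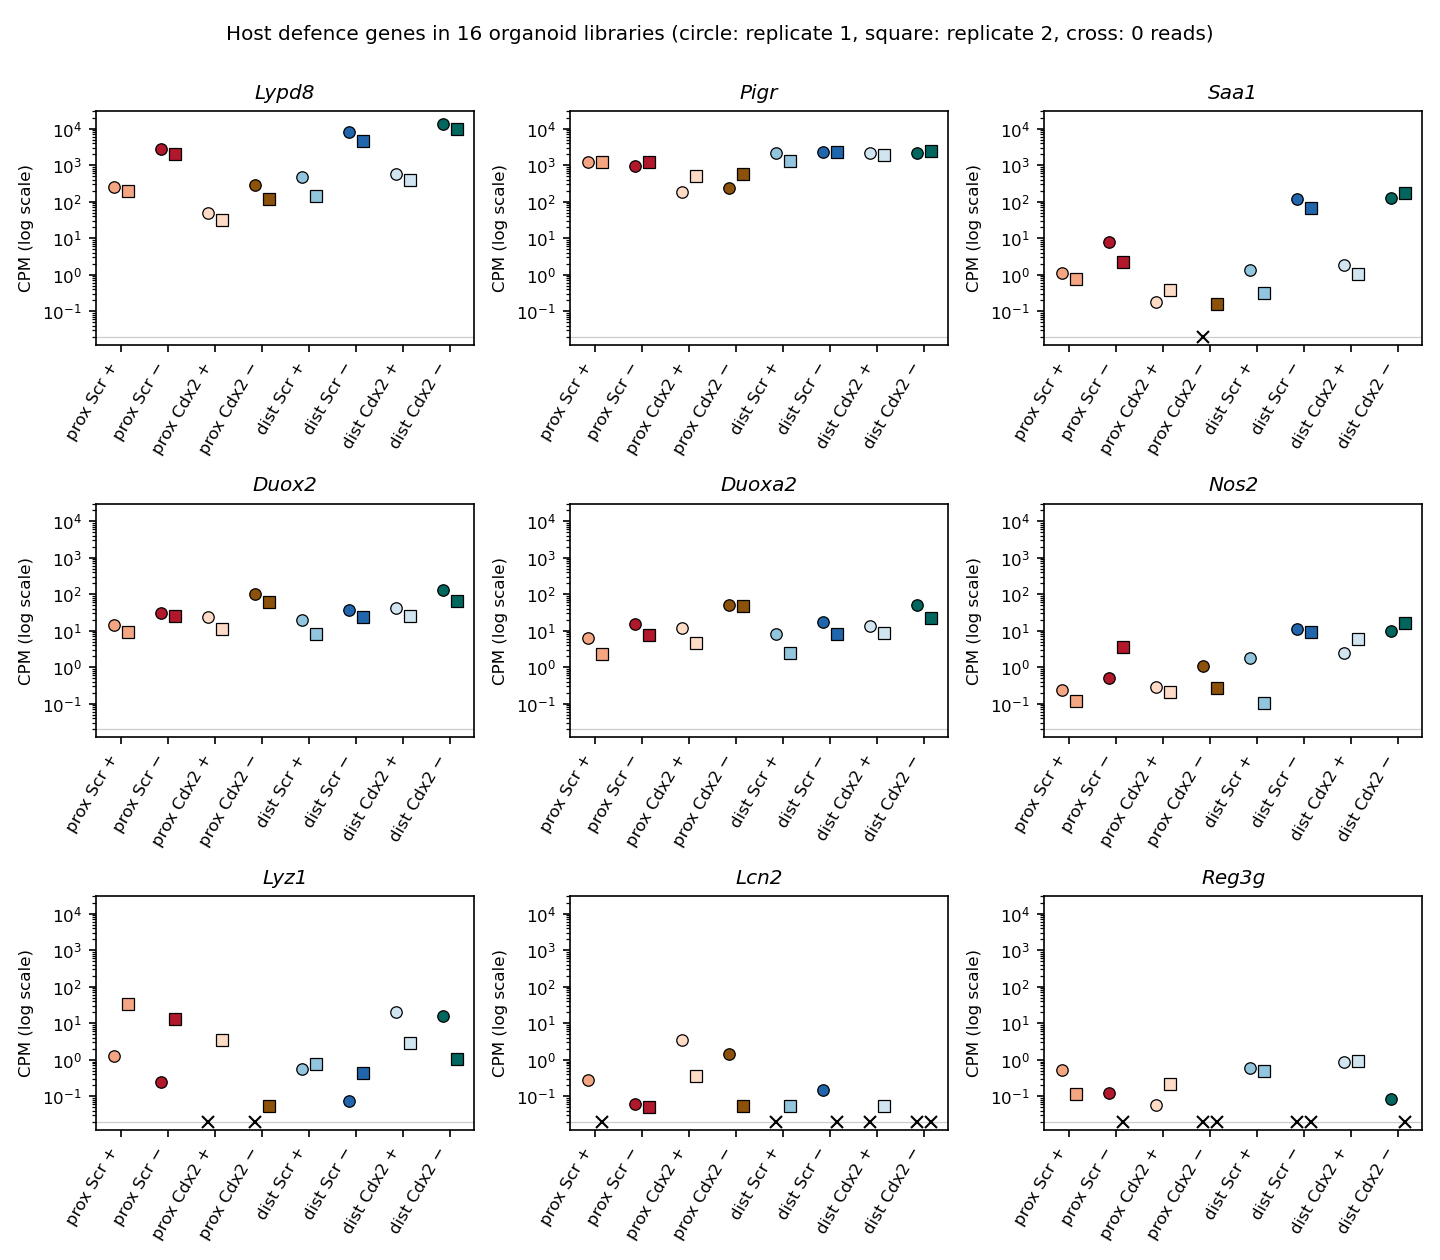
Level of 9 host defence genes in each of the 16 libraries, in CPM on a log axis (Scr, Scramble-sgRNA; + and −, WENR-plus and WENR-minus; crosses at the bottom mark libraries with 0 reads). Lypd8 reaches 13020 CPM and Saa1 176 CPM in distal Cdx2-sgRNA organoids in WENR-minus, Pigr is lowest in the proximal Cdx2-sgRNA groups, and Duox2 and Duoxa2 are highest in the Cdx2-sgRNA groups in WENR-minus.

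Pigr (ENSMUSG00000026417.13, chr1:130826684-130852249, plus strand) showed no called change with the medium. Proximal controls had 1248 and 1249 CPM in WENR-plus and 936 and 1196 CPM in WENR-minus, and distal controls 2200 and 1303 CPM and 2335 and 2321 CPM. Adjusted p for the change of medium lay between 0.507 and 0.783 over the 4 backgrounds. Per length, Pigr stood at 546 ± 33.4 TPM (SD, n = 2) in proximal controls in WENR-plus, where Lypd8 stood at 388 ± 88.9 TPM. In WENR-minus the order was the other way round, 390 ± 98.9 TPM for Pigr and 3541 ± 613 TPM for Lypd8.

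Pigr was called lower with Cdx2-sgRNA in proximal organoids in both media. In WENR-plus the proximal Cdx2-sgRNA libraries had 179 and 490 CPM, below both controls, a 3.73-fold drop (-1.90 ± 0.47, adjusted p = 0.0138). In WENR-minus they had 233 and 576 CPM, again below both controls, a 2.64-fold drop (-1.40 ± 0.46, adjusted p = 0.0405). Of all tested genes 65.3% in WENR-plus and 63.9% in WENR-minus lay apart between these groups, in either direction. In distal organoids the differences were 0.19 ± 0.46 in WENR-plus (adjusted p = 0.986) and -0.05 ± 0.46 in WENR-minus (adjusted p = 0.975). The difference between regions did not pass, at -2.09 ± 0.65 in WENR-plus (adjusted p = 0.0897), but it did by DESeq2 (0.0164), with no filter (3.36e-08) and without proximal Cdx2-sgRNA replicate 2 (-2.99, adjusted p = 0.0253).

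The 2 proximal Cdx2-sgRNA cultures differed by over 2-fold in Pigr in both media, replicate 2 being the higher. Without Cdx2-sgRNA replicate 2 the difference was -2.19 in WENR-minus and -2.80 in WENR-plus. Without Cdx2-sgRNA replicate 1 the WENR-minus difference was -0.86 (adjusted p = 0.219), and without control replicate 1 or 2 the adjusted p was 0.0874 and 0.15. In WENR-plus the adjusted p was 0.061 and 0.0579 without control replicate 1 or 2, and 0.0686 without Cdx2-sgRNA replicate 1 (-1.35). With the compared groups alone neither drop passed, at adjusted p 0.0958 in WENR-minus and 0.0713 in WENR-plus. Goblet cell markers, 8 genes with none at 0, summed to 38.1 to 73.9 CPM in the proximal Cdx2-sgRNA libraries and to 868 to 15780 CPM in all others. With Cdx2-sgRNA in proximal WENR-minus, 5 of 6 enteroendocrine markers (median -6.83) and 7 of 10 colonocyte markers (median -5.65) were also called lower, and none higher. In WENR-plus 3 of 6 and 5 of 10 were lower, and 1 colonocyte marker was higher. The part of these cell types in the Pigr values was not tested. Across libraries Pigr was most like Plce1 (r = 0.96), Pclo (r = 0.955) and Prox1 (r = 0.953).

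Duox2 (ENSMUSG00000068452.8, chr2:122279247-122298449, minus strand) and Duoxa2 (ENSMUSG00000027225.7, chr2:122298900-122302885, plus strand) are transcribed away from each other, with 450 bases between their annotated starts. Each was the gene most like the other among all 12524 compared (r = 0.962 over 16 libraries). Duox2 held 1.21 to 4.18 times as many CPM as Duoxa2, with a median of 2.46. The remaining close companions were Tnfrsf21 (r = 0.935) and Gpatch2l (r = 0.934) for Duox2, and Lgals9 (r = 0.906) and Tnfrsf21 (r = 0.901) for Duoxa2. The other pair of the family was nearly silent: Duox1 had at most 3 reads in a library and Duoxa1 at most 2.01 CPM, in the proximal Cdx2-sgRNA libraries in WENR-minus. Duoxa1 was called higher there than in the controls, which held 3 and 0 reads (adjusted p = 0.0219). It was also called at least 3.29-fold higher with Cdx2-sgRNA in proximal WENR-plus (adjusted p = 0.0322), and at least 2.29-fold higher in distal Cdx2-sgRNA organoids after the change of medium (adjusted p = 0.0301), both against groups with 0 reads.

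**Figure D2:**
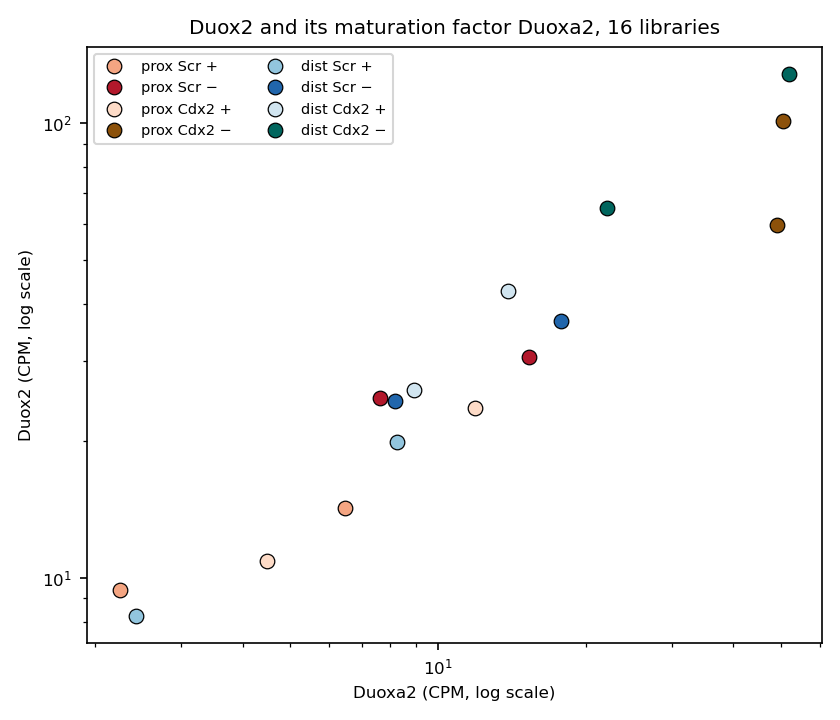
Duox2 against Duoxa2 in CPM, both on log axes, with 1 point for each of the 16 libraries. The levels rise together (r = 0.962), from 8.22 and 2.42 CPM in a distal control in WENR-plus to 128 and 51.8 CPM in a distal Cdx2-sgRNA library in WENR-minus.

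Unlike Lypd8 and Saa1, the oxidase pair was highest in the Cdx2-sgRNA organoids of both regions in WENR-minus. Duox2 had 101 and 59.6 CPM in proximal and 128 and 65 CPM in distal Cdx2-sgRNA organoids in WENR-minus, and these 4 libraries lay above all 12 others. In the controls in WENR-minus it had 30.5 and 24.8 CPM in proximal and 36.7 and 24.4 CPM in distal organoids. Duoxa2 had 50.5 and 49.1 CPM and 51.8 and 22.1 CPM in the Cdx2-sgRNA libraries, against 15.3 and 7.6 CPM and 17.8 and 8.17 CPM in the controls.

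In proximal organoids in WENR-minus, Duox2 was 2.89-fold higher with Cdx2-sgRNA (1.53 ± 0.51, adjusted p = 0.0405) and Duoxa2 4.36-fold higher (2.12 ± 0.71, adjusted p = 0.0415). Neither call was firm against the loss of a library. Duox2 missed the threshold without control replicate 1 (adjusted p = 0.102), control replicate 2 (0.163) or Cdx2-sgRNA replicate 1 (0.171), and Duoxa2 without any 1 of the 4 libraries (adjusted p 0.0706 to 0.2, with 2.75 without control replicate 1). In WENR-plus the differences were 0.54 ± 0.51 for Duox2 (adjusted p = 0.476) and 0.90 ± 0.72 for Duoxa2 (adjusted p = 0.393).

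In distal organoids the Duox2 difference in WENR-minus was 1.66 ± 0.51, at an adjusted p of 0.0638. With the replicate number as a block in the fit it was 1.61 and called (adjusted p = 0.00279), as it was with no filter on low counts, with the stricter filter and by DESeq2 (adjusted p 3.8e-11, 0.0402 and 0.00958). Duoxa2 was at 1.51 ± 0.70 (adjusted p = 0.2) and was called with the block (1.49, adjusted p = 0.0211) and with no filter (adjusted p = 2.29e-06). In WENR-plus the Duox2 difference of 1.28 ± 0.51 (adjusted p = 0.685) was called with the block (1.35, adjusted p = 0.0201) and with no filter (adjusted p = 3.34e-06), and Duoxa2, at 1.09 ± 0.71 (adjusted p = 0.929), with no filter (adjusted p = 0.00633). With a library left out none of these 4 differences was called. Duox2 then ran from 1.09 to 2.07 in WENR-minus and from 0.83 to 2.05 in WENR-plus, and Duoxa2 from 0.77 to 2.17 and from 0.50 to 2.23 in the same media. The highest value was the one without Scramble-sgRNA replicate 1, except for Duox2 in WENR-minus, where it was the one without Cdx2-sgRNA replicate 2. In each of these distal comparisons both Cdx2-sgRNA libraries held more Duox2 than either Scramble-sgRNA library. Groups lay apart, in either direction, for 56.4% of all tested genes in WENR-minus and for 37.1% in WENR-plus. The Cdx2-sgRNA difference of the pair was not shown to differ between the regions (adjusted p = 0.941 for Duox2 and 0.716 for Duoxa2 in WENR-minus).

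With the change of medium the pair rose in all 4 backgrounds in point estimate. The rise was called for both genes in proximal Cdx2-sgRNA organoids, 4.64-fold for Duox2 (2.22 ± 0.52, adjusted p = 0.0186) and 6.07-fold for Duoxa2 (2.60 ± 0.73, adjusted p = 0.037). Without WENR-plus replicate 1 the rises were 2.87 and 3.47. Without WENR-minus replicate 1 the adjusted p was 0.0808 and 0.0846, without WENR-plus replicate 2 it was 0.135 and 0.215, and Duoxa2 also missed without WENR-minus replicate 2 (0.0868). With the compared groups alone the adjusted p was 0.145 for Duox2 and 0.137 for Duoxa2. In distal Cdx2-sgRNA organoids the rise of Duox2 was 2.82-fold (adjusted p = 0.0307), which was lost without WENR-minus replicate 1 (0.92, adjusted p = 0.23) or WENR-plus replicate 2 (1.22, adjusted p = 0.16). There Duoxa2 was at 1.70 ± 0.70 (adjusted p = 0.0679), and was called with the block (1.60, adjusted p = 0.00267) and under 4 other settings: no filter, the stricter filter, DESeq2 and the compared groups alone (adjusted p 4.06e-09, 0.0492, 0.0259 and 0.0297), as well as without WENR-minus replicate 2 (2.24, adjusted p = 0.046).

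In the controls, the Duox2 difference was 1.23 ± 0.52 (adjusted p = 0.0972) for proximal and 1.12 ± 0.51 (adjusted p = 0.105) for distal organoids, and that of Duoxa2 1.38 ± 0.72 (adjusted p = 0.176) and 1.27 ± 0.72 (adjusted p = 0.18). None was called in the fit as described, and all were with the block, at 1.27 (adjusted p = 0.00147) and 1.20 (adjusted p = 0.00115) for Duox2 and 1.46 (adjusted p = 0.0101) and 1.36 (adjusted p = 0.00959) for Duoxa2. With no filter all were called too (adjusted p up to 3.43e-05), DESeq2 called Duox2 in both regions (adjusted p 0.0467 and 0.0474), and the compared groups alone called Duox2 in proximal controls (adjusted p = 0.0211). With a library left out the Duox2 difference ran from 0.99 to 1.60 in proximal and from 0.71 to 1.94 in distal controls, and was called once, without distal WENR-plus replicate 1 (1.94, adjusted p = 0.0334). That of Duoxa2 was not called without any library. It ran from 0.80 without WENR-minus replicate 1 to 2.39 without WENR-plus replicate 1 in proximal controls, and from 0.61 to 2.46 without the same libraries in distal controls. In every background replicate 1 held more Duox2 than replicate 2 of the same medium.

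Nos2 (chr11:78920787-78960254, plus strand) was low everywhere and highest in distal organoids. It had 11.1 and 8.96 CPM in distal controls in WENR-minus, against 1.8 and 0.107 CPM in WENR-plus, a 10.3-fold rise (3.37 ± 1.04, adjusted p = 0.023). That call was lost without WENR-minus replicate 1 (3.21, adjusted p = 0.0745) or WENR-plus replicate 2 (2.56, adjusted p = 0.0957), and without WENR-plus replicate 1 the rise was 6.49. In distal Cdx2-sgRNA libraries it went from 2.46 and 5.76 CPM to 9.89 and 16.1 CPM (1.65 ± 0.95, adjusted p = 0.177), called with the compared groups alone (0.0412) and with no filter (0.00134) but not with any library left out, where it ran from 1.25 to 2.43 (without WENR-plus replicate 2). In proximal controls 1 library of 2 carried the difference, with 0.239 and 0.118 CPM in WENR-plus and 0.496 and 3.49 CPM in WENR-minus (3.41 ± 1.22, adjusted p = 0.0552). That difference was called by DESeq2 (adjusted p = 0.0115), with no filter (2.03e-07) and without WENR-minus replicate 1 (4.21, adjusted p = 0.0356), and it was 1.46 without WENR-minus replicate 2 (adjusted p = 0.482). All 4 proximal Cdx2-sgRNA libraries stayed at or below 1.11 CPM. Across the libraries Nos2 was most like Sec24c (r = 0.922), Kdelr2 (r = 0.913) and Alkbh5 (r = 0.912).

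Lyz1 (chr10:117287797-117292868, minus strand) differed widely between the 2 mice of a group. In proximal controls replicate 1 had 1.29 and 0.248 CPM in the 2 media and replicate 2 had 33.4 and 13 CPM. In distal Cdx2-sgRNA organoids the order was turned, with 21.1 and 16.3 CPM in replicate 1 and 2.86 and 1.09 CPM in replicate 2. The distal controls had 0.0769 to 0.752 CPM, and proximal Cdx2-sgRNA had 3.59 CPM in 1 library and at most 1 read in the other 3. In the fit as described no comparison of 2 groups called Lyz1. DESeq2 called it lower with Cdx2-sgRNA in proximal WENR-minus (adjusted p = 0.0115), and the fit with no filter on low counts called it in 8 comparisons of 2 groups. One of these was proximal against distal controls in WENR-minus (adjusted p = 6.49e-16), where the libraries overlapped, at 0.248 and 13 against 0.0769 and 0.43 CPM. Calls with no filter thus do not reflect the spread between replicates. The change with Cdx2-sgRNA differed between regions in WENR-minus at an adjusted p of 0.049, and that call was lost without any 1 of 6 of the 8 libraries (adjusted p 0.119 to 0.33), the exceptions being proximal Scramble-sgRNA replicate 1 and distal Cdx2-sgRNA replicate 2. Its closest genes were Pdia3 (r = 0.781), Plcxd3 (r = 0.764) and Gm609 (r = 0.757).

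The macrophage copy Lyz2, which resembles Lyz1 in sequence, had at most 5 reads in a library. The Paneth cell list, whose defensins Defa21 and Defa22 were at 0 throughout, summed to 65.1 to 1052 CPM, highest in proximal Cdx2-sgRNA organoids in WENR-plus (801 to 1052 CPM against 253 to 281 CPM in the controls), where Lyz1 was at 0 and 3.59 CPM. That sum was mostly Mmp7, a matrix protease that activates defensins, at 873 against 36.2 CPM (4.59, adjusted p = 0.000936). Of the 5 Paneth cell genes tested in that comparison it alone rose and 3 fell, with a median of -3.72. Lcn2 (chr2:32384633-32388252, minus strand) passed 3 reads in 4 of the 16 libraries. It was highest in proximal Cdx2-sgRNA organoids, at 3.54 and 0.37 CPM in WENR-plus and 1.41 and 0.0529 CPM in WENR-minus, and it was not called in the fit as described. With no filter on low counts it was called higher with Cdx2-sgRNA in proximal WENR-minus (adjusted p = 0.0343) and WENR-plus (adjusted p = 0.00803).

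By comparison, the counts of members called read as follows against the share of all tested genes called in either direction. With WENR-minus, 2 of 9 tested members were called in proximal controls, where 17% of genes were, and 3 of 9 in proximal Cdx2-sgRNA, where 6.4% were. In distal controls 4 of 9 were called (26.4% of genes) and in distal Cdx2-sgRNA 4 of 9 (33.1%). All of these were rises except Reg3g in both distal comparisons. The proximal control count was 4 with the replicate block and with DESeq2, 6 with no filter and 1 with the stricter filter, and it was 1 without either WENR-plus replicate. The proximal Cdx2-sgRNA count was 0 with the compared groups alone, and also without WENR-minus replicate 1 or WENR-plus replicate 2. The distal control count was 1 with the stricter filter, and either distal count was 2 without WENR-minus replicate 1 or WENR-plus replicate 2 of its own guide. The difference between the media effects of the 2 guides called 0 members in proximal organoids (3.6% of genes), with 1 member under an unadjusted p of 0.05 and 1 called by DESeq2, and 0 in distal organoids (0% of genes), with 0 by either of those counts.

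With Cdx2-sgRNA, 5 of 9 members were called in proximal organoids in WENR-minus (21.2% of genes), Lypd8, Pigr and Saa1 lower and the oxidase pair higher, and 2 of 9 in WENR-plus (15.9%), both lower. The first count was 8 with no filter and 2 without any 1 library but Cdx2-sgRNA replicate 2, and the second was 5 with no filter, 1 with the compared groups alone, 0 without Scramble-sgRNA replicate 1 and 1 without any of the other libraries. In distal organoids 0 members were called in WENR-minus (5.24% of genes), with 1 under an unadjusted p of 0.05 and 1 by DESeq2, and 0 in WENR-plus (0.262%), with 1 under an unadjusted p of 0.05 and 0 by DESeq2. The block in the fit brought these to 2 and 1. The difference between regions in the Cdx2-sgRNA change called 3 of 9 in WENR-minus (14.3% of genes) and 1 of 9 in WENR-plus (4.98%). Between proximal and distal controls 1 of 9 was called in WENR-minus (6.08%), with 2 under the block, since Lypd8 at -1.35 ± 0.55 (adjusted p = 0.142) then passed at -1.32 (adjusted p = 0.0182), as it did with no filter and by DESeq2 (adjusted p 4.81e-07 and 0.0389), and 0 in WENR-plus (1.75%), with 1 under an unadjusted p of 0.05 and 0 by DESeq2. In the same WENR-minus comparison Pigr was at -1.13 ± 0.46 (adjusted p = 0.149), and it was called by DESeq2 (0.0491), with the compared groups alone (0.0325) and with no filter (adjusted p = 2.19e-05).

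**Figure D3:**
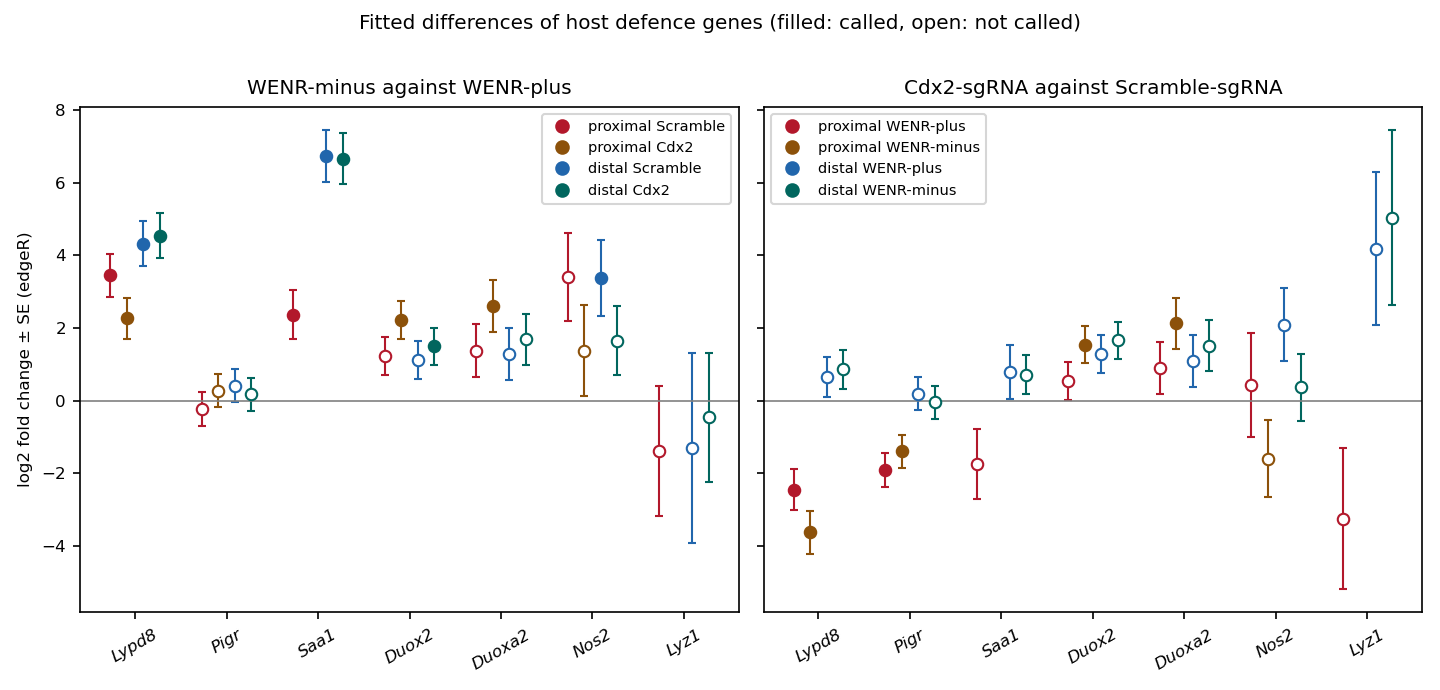
Fitted log2 fold change with its SE for 7 members, WENR-minus against WENR-plus on the left and Cdx2-sgRNA against Scramble-sgRNA on the right, with filled points for called differences. Differences in which a group lies at or under 3 reads in every library are not drawn, which leaves out Saa1 and Lyz1 in some proximal Cdx2-sgRNA comparisons. Lypd8 rises by 2.27 to 4.54 with WENR-minus in all 4 backgrounds and is called lower with Cdx2-sgRNA in both proximal comparisons.

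Around the members, 113 further defence genes in 9 lists were followed, of which 87 entered the test. The lists were drawn up with earlier results of these data known, so their shares of calls describe these genes and support nothing about defence genes at large. With WENR-minus 22 rose and 3 fell in proximal controls (28.7% called against 17% of all tested genes), with a median of 0.63 against -0.06 over all genes, and 28 rose and 4 fell in distal controls (36.8% against 26.4%, median 0.74 against -0.11). In proximal Cdx2-sgRNA organoids 11 rose and 5 fell (18.4% against 6.4%, median 0.15 against -0.03), and in distal Cdx2-sgRNA organoids 33 rose and 9 fell (48.3% against 33.1%, median 0.89 against -0.10). With genes at the floor placed at their bounds the medians were 0.56, 0.46, 0.15 and 0.66 in the order proximal control, distal control, proximal Cdx2-sgRNA and distal Cdx2-sgRNA.

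Among receptors and adaptors 9 of 19 rose and 2 fell in distal controls with WENR-minus. The cytokine Il18 went from 0.834 to 13.9 CPM (4.05, adjusted p = 0.00163). Ticam1, the adaptor of Toll-like receptor signalling, rose from 14.6 to 73.4 CPM (2.33, adjusted p = 4.24e-05), and the alarmin Il33 fell from 21.2 to 1.27 CPM (-4.04, adjusted p = 0.00446). Of the lectins 4 of 7 rose and none fell, led by the goblet cell lectin Zg16, which went from 46.4 to 1626 CPM (5.13, adjusted p = 0.0031). Of the goblet cell markers 4 of 8 rose there and none fell, with sums of 997 to 1805 CPM in WENR-plus and 5906 to 11070 CPM in WENR-minus, and their part was not tested. Of the NF-kappaB, STAT and C/EBP regulators 9 of 20 rose and none fell, with Irf7 at 3.08 and 22.4 CPM (2.86, adjusted p = 0.00601). Among the antimicrobial proteins, Sprr2a3 rose from 52 to 489 CPM (3.23, adjusted p = 0.000302) and the phospholipase Pla2g2a fell from 13.6 to 1.07 CPM (-3.66, adjusted p = 0.0016). Of the Ly6 relatives of Lypd8, 2 of 5 rose, Ly6g6c going from 0.94 to 26.2 CPM (4.77, adjusted p = 0.0027). Of all tested genes 26.4% were called in this comparison. Of the remaining lists, 2 of 6 chemokines and 1 of 5 antibody transport genes rose, 1 of 8 oxidase genes fell, and 0 of 7 acute phase and metal binding genes were called.

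With Cdx2-sgRNA, 14 of the 87 rose and 20 fell in proximal organoids in WENR-minus (39.1% called where 21.2% of all tested genes were, median -0.39 against 0.00 over all genes, -0.22 with floor genes at their bounds), and 14 rose and 12 fell in WENR-plus (29.9% against 15.9%, median 0.05 against -0.05). Of the lectins 4 of 7 fell and none rose in WENR-minus, among them Zg16, from 922 to 3.16 CPM (-8.21, adjusted p = 0.000688), and Clec2h, from 190 to 0.842 CPM (-7.89, adjusted p = 3.74e-05). The goblet cell markers fell in the same comparison, 8 of 8, from sums of 6309 to 7527 CPM to 56.7 to 73.9 CPM (median -6.36), and their part in the lectin values was not tested. Ccl28, which attracts IgA plasma cells and so sits beside Pigr in antibody transport, fell from 82.6 to 7.19 CPM (-3.53, adjusted p = 0.000528). The ribonuclease Ang4 fell from 88.1 to 0.259 CPM (-8.29, adjusted p = 6.7e-05).

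In this comparison, where 21.2% of all tested genes were called, 3 of 6 chemokines rose and none fell. The immune cell markers summed to 16 to 26.4 CPM here against 2.66 to 5.14 CPM in the controls, with 2 of the 3 that could be tested called higher and 1 lower, Adgre1 at 0 and 5 of the 10 at or under 3 reads in every library, and their part in the following values was not tested. Cxcl5, a neutrophil attractant, was at 240 CPM in proximal Cdx2-sgRNA organoids in WENR-minus and at or under 3 reads per library in the controls, which puts it at least 1400-fold higher (adjusted p = 5.05e-06), and Cxcl3 was at least 95.9-fold higher (adjusted p = 0.000113). Of the acute phase and metal binding genes 2 of 7 rose and 2 fell. Ceruloplasmin (Cp), a copper oxidase of the acute phase, went from 1.18 to 63.9 CPM (5.72, adjusted p = 0.00055) and lactoferrin (Ltf) rose at least 52.2-fold (adjusted p = 0.0123). Saa3 fell at least 16.4-fold (adjusted p = 0.00414) and complement factor B (Cfb) went from 22.2 to 7.47 CPM (-1.59, adjusted p = 0.0437). Nox1, another epithelial NADPH oxidase, fell from 16 to 0.254 CPM (-5.97, adjusted p = 0.00181) where Duox2 rose, while Cyba, a partner subunit of the NOX1 complex, rose at least 94.4-fold (adjusted p = 0.00202). Among the Ly6 relatives of Lypd8, Ly6d rose from 10.1 to 259 CPM (4.68, adjusted p = 2.22e-05). Of the receptors and adaptors 3 of 19 rose and 6 fell, with Tlr1, a receptor for bacterial lipoproteins, going from 10.7 to 0.339 CPM (-5.04, adjusted p = 7.81e-05) and Il33 from 2.42 to 42.4 CPM (4.12, adjusted p = 0.00436). Of the regulators 2 of 20 rose and 3 fell.

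In distal organoids 3 of the 87 rose and 5 fell in WENR-minus (9.2% called against 5.24%, median 0.24 against 0.00, 0.20 with floor genes at their bounds) and 2 rose and none fell in WENR-plus (2.3% against 0.262%, median 0.09 against -0.01). Ly6d was higher in both, at 128 against 12.1 CPM in WENR-minus (3.39, adjusted p = 0.00204) and 13.8 against 1.27 CPM in WENR-plus (3.43, adjusted p = 0.0138). Nox1 was lower in WENR-minus, at 6.07 against 39.7 CPM (-2.71, adjusted p = 0.0493), and Ang4 at 2.49 against 29.7 CPM (-3.57, adjusted p = 0.0118). Fcgrt, the neonatal Fc receptor that carries IgG, was higher there, at 10.6 against 3.15 CPM (1.75, adjusted p = 0.0393). Cp was higher in WENR-plus, at 199 against 2.3 CPM (6.44, adjusted p = 0.0121).

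**Figure D4:**
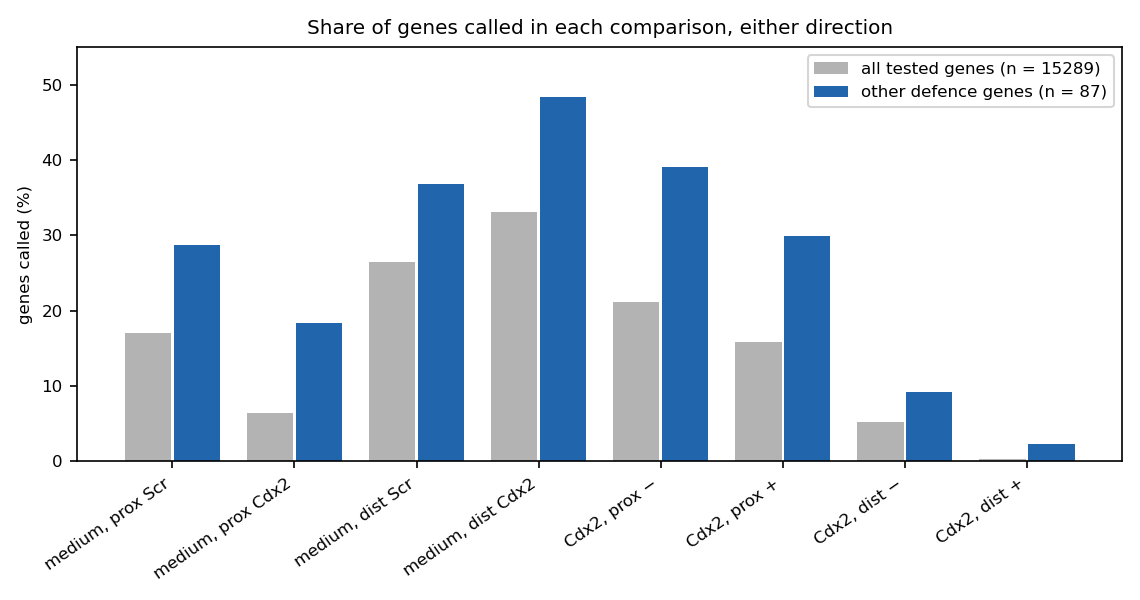
Percentage of genes called in either direction for all 15289 tested genes (grey) and for the 87 tested defence genes outside the 10 members (blue), for the change of medium in 4 backgrounds and the change with Cdx2-sgRNA in 4 settings. The shares of the defence genes, which were listed with earlier results known, run from 2.3% (2 genes of 87) in distal WENR-plus, where 0.262% of all genes were called, to 48.3% for the change of medium in distal Cdx2-sgRNA organoids, where 33.1% were.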

How the data were processed

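RNA of 16 organoid libraries had been made into stranded total RNA libraries and quantified by the authors with Salmon 1.1.0 against mouse transcripts (mm10), per the labels' processing notes and the study's methods. The deposited tables give, for each transcript, an estimated count (NumReads), a TPM value and an effective length. The deposited notes also name DESeq2 1.32 for the authors' own comparisons, which were not used here. Salmon shares reads among similar transcripts, so near copies (Saa1 with Saa2 and Saa3, Lyz1 with Lyz2, Reg3 genes) are uncertain.

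Here the estimated counts were summed per gene through GENCODE transcript names, which matched 139864 of 140748 transcripts and left out 884 that held 0.257% to 0.509% of reads. Sums were rounded to whole numbers and fitted with edgeR 4.0.16 (R 4.3.3, quasi-likelihood test, TMM, filterByExpr leaving 15289 genes) with 1 coefficient for each of the 8 groups over all libraries, 8 residual degrees of freedom and Benjamini-Hochberg adjustment over all genes tested. TPM values were summed per gene for levels between genes. Where both libraries of a group held at most 3 reads, a fold is a bound against 3 reads per library. Floors cover counting error only, whereas a ± value is the standard error of the fit, which takes in the spread between libraries, unless named as SD. The 10 members, the marker lists and the defence lists were chosen with earlier results of these data known. Genes of a list were named when called, among the 3 with the largest change in the comparison and at 1 CPM or more in the higher group. The 3 genes closest to a member by Pearson correlation were also named, except for Lcn2, which passed 3 reads in 4 libraries, and except a gene that is not reported here. The procedure was tested on simulated data. Alternatives were RLE factors, no or a stricter filter (10 counts in every library), DESeq2 1.42.0, no fold threshold, the replicate number as a block, the compared groups alone, and each library left out in turn, where a lone library is assumed to vary like the other groups. With no filter the adjusted p values fell far below those of the fit as described, for Lyz1 even where libraries overlapped. A call under that setting alone is therefore not a measure against the spread between replicates.

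The study's methods give 2 independent mice as the source of the replicates. That a number marks the same mouse across guides and regions is not given in the sources used here, so values with the replicate block rest on that reading. Deviations of same-numbered libraries correlated at -0.0576 to 0.529 over 28 pairs of groups (median 0.0632, 8 over 0.1), and at 0.225 to 0.529 for the 4 pairs that hold both media of 1 culture.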

Additional observations from a re-analysis of the deposited data

Results flagged for a closer look

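In WENR-minus 3 of 9 tested members were called in the edgeR test of whether the Cdx2-sgRNA change differed between proximal and distal organoids. Of all tested genes 14.3% were called in that test, and 4.98% in WENR-plus. For Lypd8 the change in proximal organoids minus that in distal organoids was -4.50 on the log2 scale in WENR-minus (-4.495 unrounded, adjusted p = 0.0036) and -3.10 in WENR-plus (-3.101 unrounded, adjusted p = 0.0411). The first held without any 1 library, with adjusted p 0.00431 to 0.0237, and the second was lost without any 1 of 7 of its 8 libraries, with adjusted p 0.0142 to 0.138 over all 8. For Saa1 the adjusted p was 0.00448 in WENR-minus, where the proximal Cdx2-sgRNA libraries held 0 and 3 reads. For Lyz1 the adjusted p was 0.049 in WENR-minus, where it held 0 and 1 read in proximal Cdx2-sgRNA libraries, and it lay between 0.0442 and 0.33 with 1 library left out.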

How the results depend on the processing

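Library depth leaves Reg3g, Lcn2, Saa1 in proximal Cdx2-sgRNA organoids and the Lyz1 zeros near the floor of 3 reads, and 2 mice per group set the precision of the rest. The count of members called moved by more than 1.5 times as follows. With no filter on low counts it was 6 for the change of medium in proximal controls, 8 and 5 for Cdx2-sgRNA in proximal WENR-minus and WENR-plus, 3 and 4 in distal WENR-minus and WENR-plus, 5 and 2 for the regions in WENR-minus and WENR-plus, 5 and 4 for the difference between regions in the Cdx2-sgRNA change, and 4 for the difference between guides in the proximal change of medium. Of all 27429 genes then tested, 3111, 3847, 3091, 1531, 586, 1619, 1039, 3185, 1863 and 1596 were called, in the same order. With 10 counts in every library it was 1, 1, 1 and 1 for the change of medium in proximal and distal controls, Cdx2-sgRNA in distal WENR-minus and the difference between regions in WENR-minus, and 0 for the regions in WENR-minus. Of all 10202 genes then tested, 1856, 3077, 610, 1661 and 585 were called, in the same order. With the replicate block (pairing by replicate number) it was 4 for the change of medium in proximal controls, 2 and 1 for Cdx2-sgRNA in distal WENR-minus and WENR-plus, and 2 for the regions in WENR-minus, and the block ended no call of a member. The block called 2743, 940, 65 and 1070 of all 15289 tested genes, in the same order. With DESeq2 it was 4 for the change of medium in proximal controls, 1 for Cdx2-sgRNA in distal WENR-minus, 3 for the regions in WENR-minus, 2 for the difference between regions in WENR-plus and 1 for the difference between guides in the proximal change of medium. DESeq2 called 2736, 1051, 1181, 1228 and 1166 of all 15289 tested genes, in the same order. With the compared groups alone it was 0 for the change of medium in proximal Cdx2-sgRNA, 1 for Cdx2-sgRNA in proximal WENR-plus, 2 for the regions in WENR-minus and 0 for the difference between regions in WENR-plus. That setting called 0, 1746, 779 and 498 of all 15289 tested genes, in the same order. The causes were not tested.

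With each library left out in turn the count ran from 1 to 2, 0 to 3, 2 to 4 and 2 to 4 for the change of medium in proximal controls, proximal Cdx2-sgRNA, distal controls and distal Cdx2-sgRNA, from 2 to 4 and 0 to 1 for Cdx2-sgRNA in proximal WENR-minus and WENR-plus, from 2 to 3 and 0 to 1 for the difference between regions in WENR-minus and WENR-plus, and stayed at 1 for the regions in WENR-minus and at 0 in the 5 others. Of 46 member differences, 218 of 263 values under other settings kept their direction and side of the threshold, 37 newly passed and 8 no longer passed. Of 204 values with a library left out, 147 kept both, 50 no longer passed, 4 newly passed and 3 changed sign. The sign changes were Duox2 with Cdx2-sgRNA in proximal WENR-plus (-0.11 without Cdx2-sgRNA replicate 1, range -0.11 to 1.00), Pigr in distal WENR-minus (0.025 without Cdx2-sgRNA replicate 1, range -0.12 to 0.025) and Pigr in distal WENR-plus (-0.10 without Scramble-sgRNA replicate 2, range -0.10 to 0.61).

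Over all genes, the calls for Cdx2-sgRNA in distal WENR-plus went from 40 to 586 with no filter, 17 with the stricter filter, 65 with the block, 176 with DESeq2 and 4 with the compared groups alone. In distal WENR-minus they went from 801 to 1531 with no filter and 424 with the compared groups alone, and with the stricter filter from 3239 to 1790 in proximal WENR-minus and from 2428 to 1257 in proximal WENR-plus. For the change of medium in proximal Cdx2-sgRNA they went from 978 to 1484 with no filter and to 0 with the compared groups alone, where Lypd8 (adjusted p = 0.147), Duox2 (0.145) and Duoxa2 (0.137) missed. For the regions they went from 929 to 1619 with no filter and 585 with the stricter filter in WENR-minus, and from 267 to 1039, 107 and, with DESeq2, 538 in WENR-plus. For the difference between regions in WENR-plus they went from 762 to 1863 with no filter, 426 with the stricter filter, 1228 with DESeq2 and 498 with the compared groups alone. For the difference between guides in the change of medium they went from 550 to 1596, 829 with the block, 1166 with DESeq2 and 80 with the compared groups alone in proximal organoids, and from 0 to 354, 4 with the stricter filter, 8 with the block and 120 with DESeq2 in distal organoids.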
